A study of Mus musculus with 12 samples.

Results

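A set of 8 genes of megakaryocytes and platelets was followed across endothelial populations sorted from mouse bone marrow. They were chosen by name for their known role, and comprise Pf4, Ppbp, Gp9, Gp1ba, Gp1bb, Gp5, Gp6 and Treml1. All 8 were among the 17362 genes of the deposited table, and all 8 passed the filter on low values. For 6 of them (all but Pf4 and Ppbp) at least 1 library held no reads. The cells came from crushed tibia, femur and iliac bone of untreated B6 mice. The labels describe 4 sorted populations with 3 libraries each, all gated as negative for CD45, the common leukocyte antigen, and positive for CD31 and Sca1. CD200-high capillaries were gated as CD200Hi and EMCN-, type H vessels as EMCN+ (endomucin), and other arterial cells as CD200-. The sinusoidal gate names no further antigen and so, as labelled, contains the other gates. The labels give biological triplicates from 6 mice but number the mice 1 to 3, so whether animals were pooled is not given, nor is their age.

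Megakaryocytes are the large marrow cells that shed platelets into marrow sinusoids. They fill platelet granules with the chemokines Pf4 and Ppbp and carry a receptor for von Willebrand factor, built from the products of Gp1ba, Gp1bb, Gp9 and Gp5, with which platelets catch on a damaged vessel wall. Gp6 encodes the collagen receptor of platelets, and Treml1 a receptor stored in granule membranes and shown on the surface after activation. Transcription factors of the GATA, ETS and RUNX families drive this programme, and megakaryocytes, like endothelium, carry CD31. In sorted bulk samples, fewer cells of a type and less RNA per cell cannot be told apart.

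The libraries labelled sinusoidal differed from the other populations in Ly6a and in pan-endothelial genes, although all 4 gates name Sca1 and CD31. The libraries held 7.33 to 21.6 M listed reads (M, 1e6 reads). Values are log2 CPM (counts per 1e6 reads, with 0.5 read added before the log), given as mean ± SD of 3 libraries. For Ly6a, the Sca1 gene, the level was 4.05 ± 0.71 in the libraries labelled sinusoidal, against 8.92 ± 0.39 for type H, 9.78 ± 0.13 for arterial and 10.19 ± 0.35 for CD200-high. The summed level of 16 pan-endothelial genes, among them Cdh5 and Kdr, ran from 10530 to 10750 CPM in type H, from 3568 to 6505 in CD200-high and from 1762 to 2348 in arterial libraries. In the libraries labelled sinusoidal it ran from 247 to 261 CPM, of which Pecam1, the CD31 gene, held 64.9 to 86.6 CPM. Each of the 16 genes had reads in every one of these libraries, but Cdh5 had only 8 to 24. These libraries are therefore called by their label.

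The stretch before the transcript start is shown for 3 genes of the von Willebrand factor receptor, which were at or near 0 reads in most CD200-high and type H libraries, and for Pf4, which had at least 94 reads in every library. RefSeq (GRCm38.p6) gave a promoter for 8 of the 8 genes. Each line runs 5′ to 3′ on the gene's strand over the 250 bases that end just before the start. Capitals mark GATAA, the core of GATA sites, and GGAAG, a core of ETS sites, on either strand (TTATC and CTTCC), and no match overlaps another.
Gp1ba (chr11:70638872-70639121, plus strand): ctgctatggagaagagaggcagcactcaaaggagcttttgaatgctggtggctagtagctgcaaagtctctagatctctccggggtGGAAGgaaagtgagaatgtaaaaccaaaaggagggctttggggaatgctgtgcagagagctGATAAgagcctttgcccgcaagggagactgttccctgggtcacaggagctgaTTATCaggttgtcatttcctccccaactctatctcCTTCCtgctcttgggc
Gp9 (chr6:87777820-87778069, plus strand): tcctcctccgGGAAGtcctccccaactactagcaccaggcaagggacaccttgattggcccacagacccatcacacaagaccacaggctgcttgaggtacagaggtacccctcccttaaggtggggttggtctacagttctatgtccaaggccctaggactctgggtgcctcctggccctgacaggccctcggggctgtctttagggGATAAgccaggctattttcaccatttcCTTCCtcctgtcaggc
Gp5 (chr16:30310782-30311031, minus strand): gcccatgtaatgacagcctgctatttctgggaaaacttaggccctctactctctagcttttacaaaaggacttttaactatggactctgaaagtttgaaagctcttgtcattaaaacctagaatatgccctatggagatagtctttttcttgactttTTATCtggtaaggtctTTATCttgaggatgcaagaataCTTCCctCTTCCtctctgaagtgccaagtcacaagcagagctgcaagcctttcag
Pf4 (chr5:90772185-90772434, plus strand): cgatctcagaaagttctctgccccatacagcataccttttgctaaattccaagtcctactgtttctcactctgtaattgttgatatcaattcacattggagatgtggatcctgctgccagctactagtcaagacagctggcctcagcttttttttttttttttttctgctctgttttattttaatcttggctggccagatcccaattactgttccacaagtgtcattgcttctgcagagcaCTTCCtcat

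GATAA was found in the window of 4 of the 8 genes, namely Gp1ba, Gp9, Gp5 and Gp6, against 22.6% of 32851 RefSeq promoter windows of the same length. Gp1ba had it 103 and 51 bases before the start, Gp5 93 and 77 bases before, and Gp9 43 bases before. GGAAG was found in 7 of the 8 windows, against 64.1% of all windows, and lacked a match in that of Gp6. Both motifs stood in 3 of the 8 windows (Gp1ba, Gp9 and Gp5), against 13.2% of all. A match describes the letters only. The window before Gp1bb lies in an exon of its neighbour Sept5 and is not shown.

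Pf4 encodes platelet factor 4, a chemokine of platelet granules, and was the one member with a level in steps across all 4 populations. Listing replicates 1, 2 and 3 in order, it stood at 8.69, 16.8 and 28.5 CPM for CD200-high and at 49.7, 28.6 and 45.3 CPM in type H. It stood at 440, 248 and 126 CPM in the arterial libraries and at 1170, 1272 and 1138 CPM in those labelled sinusoidal. The 4 populations did not overlap in any pair, and the order was CD200-high, type H, arterial, then the libraries labelled sinusoidal. On the log2 scale these were 4.01 ± 0.86, 5.33 ± 0.43, 7.90 ± 0.90 and 10.22 ± 0.08. The libraries labelled sinusoidal were higher than arterial by 2.31 ± 0.47 (SE; limma adjusted p = 0.00778), than type H by 4.89 ± 0.47 (adjusted p = 1.27e-05) and than CD200-high by 6.21 ± 0.47 (adjusted p = 3.23e-06). Type H and CD200-high differed by 1.31 ± 0.47, short of the threshold (adjusted p = 0.0902). Without CD200-high replicate 3 it passed, and over all alternatives the adjusted p ran from 0.0329 to 0.681.

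Ppbp, which encodes the precursor of the neutrophil-attracting platelet chemokine and lies next to Pf4 on chromosome 5, matched Pf4 at the top and was more scattered at the bottom. It stood at 0.647, 44.9 and 19.2 CPM in CD200-high, at 15.5, 4.39 and 6.46 in type H, at 671, 311 and 153 in arterial libraries and at 1593, 1141 and 842 in those labelled sinusoidal. CD200-high and type H overlapped, and both lay below the 2 other populations. Ppbp was higher in the libraries labelled sinusoidal than in type H by 7.24 ± 1.20 log2 (adjusted p = 0.000797) and than in CD200-high by 7.09 ± 1.20 (adjusted p = 0.00106). Arterial libraries were higher than type H by 5.38 ± 1.20 (adjusted p = 0.00834) and than CD200-high by 5.23 ± 1.20 (adjusted p = 0.0149). The last call was lost without arterial replicate 1 (adjusted p = 0.0648), with voom weights (0.0961) and in a fit of only these populations (0.0556), with 0.00126 as the lowest of all alternatives. CD200-high minus arterial was -6.44 without CD200-high replicate 2 and -3.43 without CD200-high replicate 1, and minus sinusoidal-labelled -8.30 and -5.29.

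The balance between the 2 chemokines was not the same in every population. Within a library, Pf4 exceeded Ppbp by 1.68, 2.70 and 2.80 log2 CPM in type H. It differed from Ppbp by -0.61, -0.33 and -0.28 in arterial libraries and by -0.44, 0.16 and 0.44 in those labelled sinusoidal, so that both were near equal reads there. In CD200-high the difference spread from -1.42 to 3.66. These are differences of reads and not of molecules, since the genes differ in length.

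**Figure D1:**
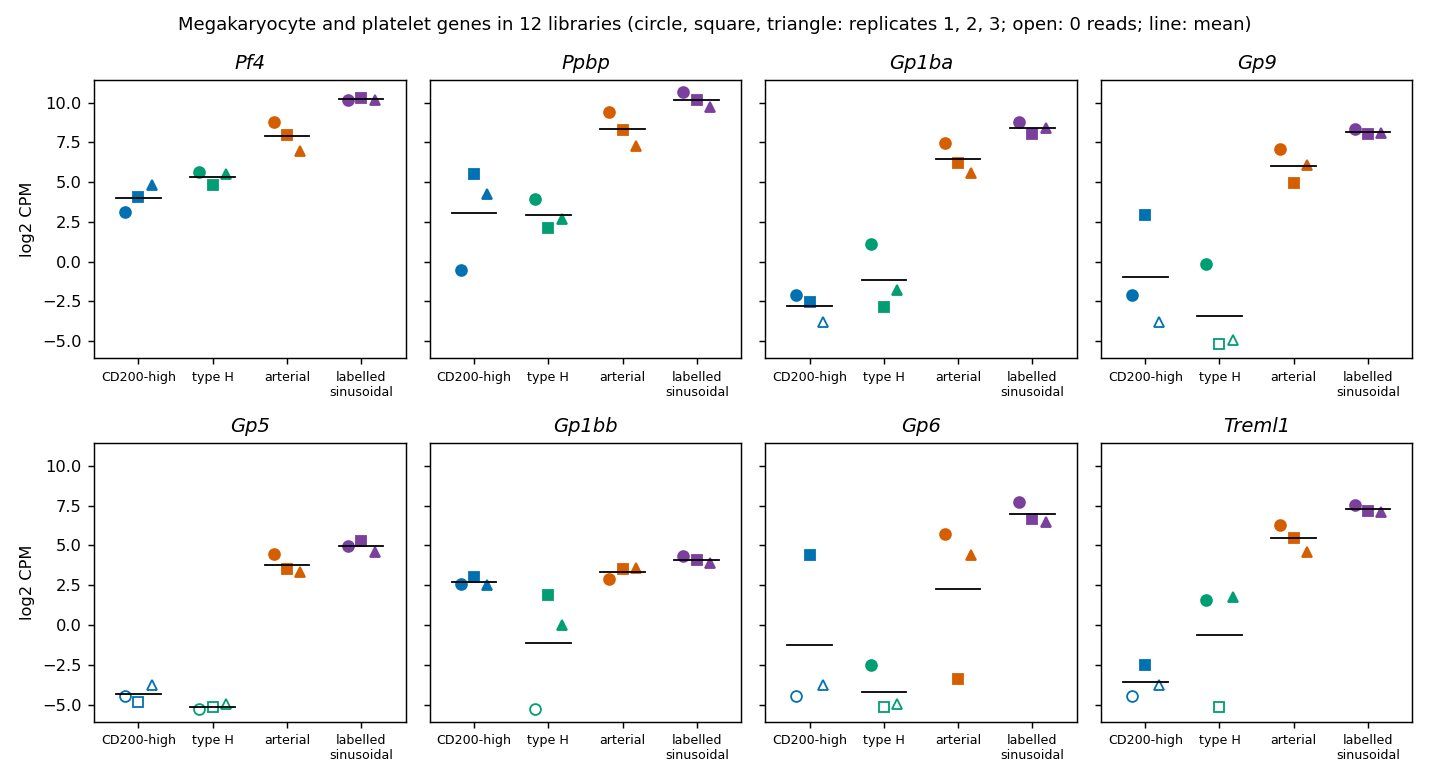
Level of each of the 8 genes in every library (y axis, log2 CPM; x axis, population as labelled; circles, squares and triangles are replicates 1, 2 and 3, open symbols libraries with 0 reads, and lines the means of 3). Pf4 steps up from 4.01 in CD200-high to 10.22 in the libraries labelled sinusoidal, and Gp5 has open symbols in all CD200-high and type H libraries.

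Among the subunits of the von Willebrand factor receptor, Gp1ba, the ligand-binding chain, had next to no reads in 2 of the populations. It had 2, 2 and 0 reads in CD200-high and 41, 2 and 4 reads in type H, against 2944, 1209 and 451 reads in arterial libraries and 7942, 6532 and 6907 in those labelled sinusoidal. As levels these were at most 0.185 CPM in CD200-high and at most 2.11 CPM in type H, against 48.0 to 175 CPM in arterial libraries and 264 to 442 CPM in those labelled sinusoidal. The lower and the upper pair of populations did not overlap. Gp1ba was higher in the libraries labelled sinusoidal by 11.21 ± 0.97 log2 over CD200-high (adjusted p = 9.27e-06) and by 9.59 ± 0.97 over type H (adjusted p = 2.07e-05). Arterial libraries were higher by 9.22 ± 0.97 over CD200-high (adjusted p = 0.000286) and by 7.60 ± 0.97 over type H (adjusted p = 0.000272). With so few reads in the lower populations, these differences depend on the 0.5 read added before the log. With a pseudocount of 1 CPM added on top of it, CD200-high minus sinusoidal-labelled was -8.20 and minus arterial -6.23. Type H minus the same was -7.68 and -5.71.

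Gp9, which encodes the small GPIX subunit, followed with 1 exception. Type H had 17, 0 and 0 reads and CD200-high 2, 108 and 0, so CD200-high replicate 2 stood apart at 7.50 CPM. Arterial libraries stood at 134, 30.9 and 68.5 CPM and those labelled sinusoidal at 317, 256 and 276 CPM, all above the lower pair. Gp9 was higher in the libraries labelled sinusoidal by 11.56 ± 1.66 log2 over type H (adjusted p = 0.000284) and by 9.13 ± 1.66 over CD200-high (adjusted p = 0.0017). Arterial libraries were higher by 9.46 ± 1.66 over type H (adjusted p = 0.00202) and by 7.02 ± 1.66 over CD200-high (adjusted p = 0.0173). The call against CD200-high was lost without CD200-high replicate 1 (adjusted p = 0.0539), arterial replicate 1 (0.071) or arterial replicate 3 (0.0565). The lowest value of all alternatives was 0.000932. The 4 differences also depend on the offset and on single libraries. With a pseudocount of 1 CPM, type H minus sinusoidal-labelled was -7.81 and minus arterial -5.73, and CD200-high minus the same was -6.98 and -4.90. Without CD200-high replicate 2 the CD200-high differences were -11.08 and -8.98, without CD200-high replicate 3 they were -7.74 and -5.64, and without type H replicate 1 those of type H were -13.20 and -11.10.

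Gp5, the thrombin-cleaved subunit, had 0 reads in each of the 6 CD200-high and type H libraries. It had 371, 181 and 94 reads in arterial libraries and 561, 968 and 482 in those labelled sinusoidal, where its level was 31.2, 39.2 and 23.5 CPM. The lowest library labelled sinusoidal was at least 121-fold higher than the highest floor of 3 reads per library in type H and at least 53.1-fold higher than that in CD200-high. For the lowest arterial library the bounds were at least 51.6-fold over type H and at least 22.6-fold over CD200-high. Each of these 4 comparisons passed the test (adjusted p = 1.04e-05, 2.71e-05, 8.79e-05 and 0.000428 in the same order). In the 6 libraries without reads, however, the log2 values hold only depth and the 0.5 read added. The p-values therefore measure no spread of expression there. Gp5, like Gp1ba, Gp9, Gp6 and Treml1, passed the filter on low values only through the other populations. Arterial libraries and those labelled sinusoidal did not overlap but differed by 1.17 ± 0.93 log2, which did not pass (adjusted p = 0.512).

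Gp1bb, the beta chain bound to the product of Gp1ba, did not follow its partner subunits, and most of its annotated exon bases are shared with a neighbour. In GENCODE M21 (GRCm38), 91.1% of the exon bases of Gp1bb (1902 of 2087) also belong to exons of Sept5, a septin gene on the same strand, and 92.9% to Sept5 or the read-through gene model Gm49601. Exons of the other 7 genes shared 0 bases with another gene. Gp1bb had 65, 119 and 39 reads in CD200-high, 0, 66 and 15 in type H, 124, 187 and 113 in arterial libraries and 356, 419 and 302 in those labelled sinusoidal. Sept5 had 92, 142 and 50 reads, then 2, 92 and 19, then 156, 218 and 144, and 353, 431 and 312 in the same order. Both were lowest in type H replicate 1 and highest in the libraries labelled sinusoidal. Over the 12 libraries their log2 levels had a Pearson r of 0.99, against 0.48 between Gp1bb and the mean of the other 7 members. Such correlations are descriptions over libraries that share populations.

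Within a library, Gp1ba minus Gp1bb was 3.96 to 4.51 log2 CPM in those labelled sinusoidal, 1.99 to 4.56 in arterial ones and -6.30 to -4.71 in CD200-high, while type H spread over 6.38, -4.73 and -1.78 for replicates 1, 2 and 3. Gp1ba had 2, 2 and 0 reads in CD200-high and 41, 2 and 4 in type H, and Gp1bb had 0 in type H replicate 1. The CD200-high and type H values therefore depend on the 0.5 read added. Gp1bb was lower in type H than in the libraries labelled sinusoidal by 5.23 ± 1.40 log2 (adjusted p = 0.0151) and than in arterial libraries by 4.47 ± 1.40 (adjusted p = 0.0418). The differences of type H were -3.15 and -2.40 without type H replicate 1, the library with no reads, and -6.73 and -5.98 without type H replicate 2. The call against arterial libraries was lost in each of 9 fits without 1 CD200-high, arterial or sinusoidal-labelled library (adjusted p from 0.0501 to 0.108), and with quantile normalization (0.0761), no variance trend (0.0587) or only these populations (0.133). With only the populations compared, the call against the libraries labelled sinusoidal was lost too (0.0697). For Sept5 the corresponding differences were 4.21 ± 1.06 (adjusted p = 0.0106) and 3.73 ± 1.06 (adjusted p = 0.027), the latter lost without any 1 arterial library (0.0573 to 0.0814). With only the populations compared both were lost (0.0553 and 0.106), and without type H replicate 1 the differences were -2.77 and -2.29. CD200-high did not differ from the libraries labelled sinusoidal past the threshold in Gp1bb (1.36 ± 1.40, adjusted p = 0.504). How the authors' counting treated reads in shared exons is not given in the sources used here.

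**Figure D2:**
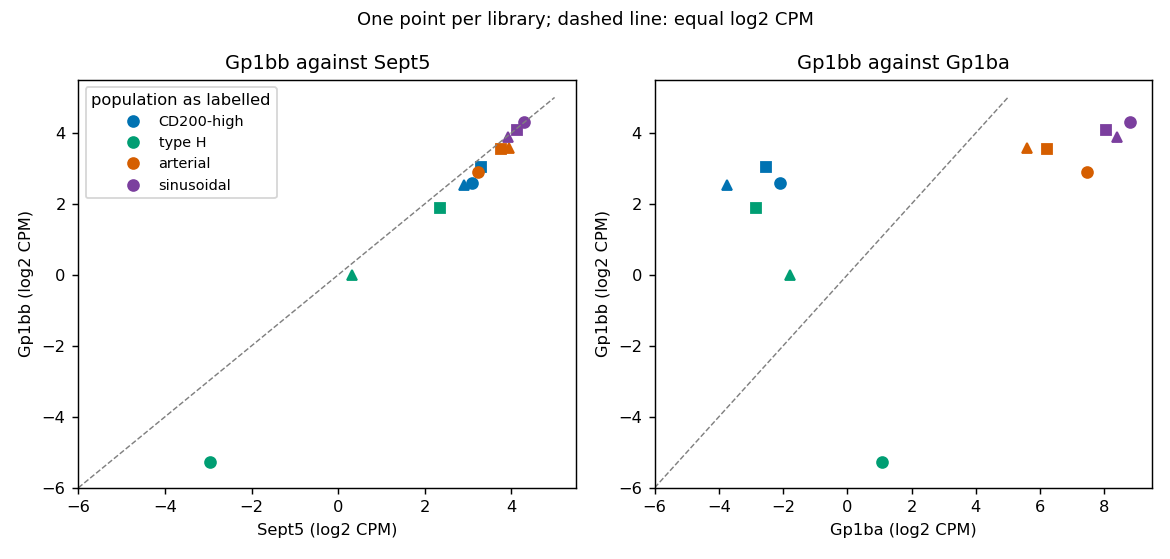
Gp1bb (y axis, log2 CPM) against its overlapping neighbour Sept5 (left) and against its receptor partner Gp1ba (right), 1 point per library, coloured by population and shaped by replicate, with a dashed line at equal levels. The points lie along the line on the left, with type H replicate 1 lowest at -5.28 and -2.96, and away from it on the right.

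Gp6, the platelet collagen receptor, was uneven within CD200-high and arterial libraries. Its reads in CD200-high came from 1 library, with 0, 303 and 0 reads, and arterial replicate 2 had 1 read where the other two had 895 and 200. Type H had 3, 0 and 0 reads, and the libraries labelled sinusoidal had 3798, 2496 and 1818. CD200-high and arterial libraries overlapped, as did type H and arterial ones. Gp6 was higher in the libraries labelled sinusoidal than in type H by 11.15 ± 2.55 log2 (adjusted p = 0.00635). From pooled reads, 8112 against 3, the ratio was 2267 with an exact 95% counting interval of 775 to 10990, which covers counting error only. The difference from CD200-high, 8.22 ± 2.55 (adjusted p = 0.0319), did not pass with the replicate block (adjusted p = 0.0523). It was also lost without CD200-high replicate 1 or 3 (0.104 and 0.095) or any library labelled sinusoidal (0.0915, 0.0755 and 0.0715), and with no variance trend (0.052). The lowest of all alternatives was 0.000246. Without CD200-high replicate 2 CD200-high minus sinusoidal-labelled was -11.05, and without replicate 1 it was -6.63. With a pseudocount of 1 CPM it was -5.42, and type H minus sinusoidal-labelled was -6.86. Arterial against type H was 6.44 ± 2.55 and did not pass (adjusted p = 0.0989), but did without arterial replicate 2 (adjusted p = 0.0189) or CD200-high replicate 2 (0.0443). All alternatives together spanned 0.00887 to 0.303.

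Treml1 had 0, 2 and 0 reads in CD200-high and 57, 0 and 52 in type H. It stood at 78.8, 44.4 and 23.8 CPM in arterial libraries and at 185, 141 and 140 CPM in those labelled sinusoidal, with no overlap between any of these and the lower pair. It was higher in the libraries labelled sinusoidal by 10.84 ± 1.54 log2 over CD200-high (adjusted p = 0.000302) and by 7.88 ± 1.54 over type H (adjusted p = 0.00236). Arterial libraries were higher by 9.02 ± 1.54 over CD200-high (adjusted p = 0.00308) and by 6.07 ± 1.54 over type H (adjusted p = 0.0159), the last lost without arterial replicate 1 (adjusted p = 0.0623) and in a fit of only these populations (0.0593), with 0.000395 as the lowest of all alternatives. With a pseudocount of 1 CPM, CD200-high minus sinusoidal-labelled was -7.14 and minus arterial -5.35, and type H minus the same was -5.89 and -4.10. Without type H replicate 2 the type H differences were -5.60 and -3.79, and without type H replicate 3 they were -9.07 and -7.25. In type H the libraries that held Treml1 were replicates 1 and 3, which were also the higher type H libraries for Pf4.

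Counted together, most of the 8 genes were lower in CD200-high and type H than in both other populations. Comparisons below share libraries, so their counts are not independent. Gp1ba, Gp9, Gp5, Gp6 and Treml1 passed the filter on low values only through arterial or sinusoidal-labelled libraries. They could hardly be called higher in CD200-high or type H than there, so the counts against those populations are a description only. Against the libraries labelled sinusoidal, 8 of 8 members were lower in type H, where 14.6% of all 17086 genes tested were lower, and 7 of 8 were lower in CD200-high, where 14.6% were. Against arterial libraries, 7 of 8 were lower in type H, with 12.7% of all genes lower, and 6 of 8 in CD200-high, with 8.15% lower. The median differences of the members were -8.74, -8.67, -6.25 and -6.13 log2 in the same order, or -7.56, -7.66, -5.88 and -4.87 with Gp5 at its bound. Under a pseudocount of 1 CPM they were -6.37, -6.37, -3.97 and -4.29. The medians over all genes were -0.20, -0.22, -0.20 and -0.22.

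Within the pairs few members differed past the threshold of the main fit, which shares 1 spread over all 4 populations. Between arterial libraries and those labelled sinusoidal, 1 of 8 was lower in arterial (Pf4), with 2.14% of all genes lower. Voom weights on recovered reads called 5 of the 8, namely Gp1ba, Gp9, Pf4, Ppbp and Treml1, with 4.33% of all genes lower under those weights. A fit of only these populations, without the libraries near 0 reads, called the same 5, with 5.54% of all genes lower. The differences of these 5 lay close together, between 1.82 ± 1.54 (Treml1) and 2.31 ± 0.47 (Pf4), while Gp5 stood at 1.17 ± 0.93, Gp1bb at 0.75 ± 1.40 and Gp6 at 4.71 ± 2.55. Between CD200-high and type H, limma called 0 of 8, where 6.66% of all genes were higher and 6.35% lower in CD200-high. At an unadjusted p under 0.05 limma gave 2 of 8, where 26.4% of all genes reached it. Voom called 0 of 8, where it called 14.6% of all genes in either direction. Without type H replicate 2, Gp1bb was higher (adjusted p = 0.018) and Treml1 lower (0.00126) in CD200-high.

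**Figure D3:**
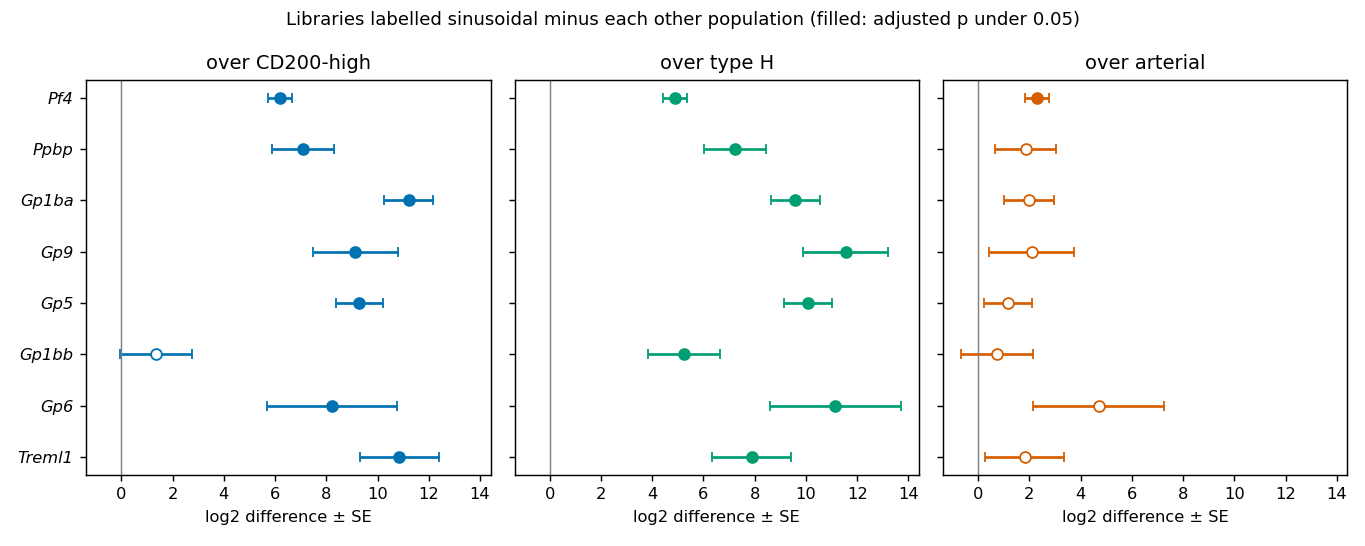
Difference between the libraries labelled sinusoidal and each other population for the 8 genes (x axis, log2 difference ± SE from the fit over 12 libraries; filled, adjusted p under 0.05). Differences over arterial run from 0.75 to 4.71 and those over type H from 4.89 to 11.56; fitted values of genes with no reads in the lower population (Gp5) depend on the 0.5 read added.

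Per kilobase of exon, the levels of the members in the libraries labelled sinusoidal spanned from chemokines to the rarer receptors. Lengths are the union of GENCODE M21 exons, which may differ from the annotation the authors used. Pf4 stood at 1655 ± 96.5 CPM per kb (SD, n = 3), above Ppbp at 1101 ± 349, and Gp9 followed at 321 ± 35.5. Gp1ba at 128 ± 32.9 and Treml1 at 111 ± 18.5 overlapped. Gp6 at 22.7 ± 11.5 and Gp5 at 14.3 ± 3.57 overlapped too, and Gp1bb, uncertain for its shared exons, was at 8.23 ± 1.23. Among the receptor subunits, Gp9 was thus the highest and Gp5 far lower, with no overlap among Gp9, Gp1ba and Gp5.

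A further 38 megakaryocyte and platelet genes, listed by role, gave the wider setting. In type H, 28 of 38 were lower and 2 higher than in the libraries labelled sinusoidal (median -4.97 log2), and in CD200-high 24 were lower and 1 higher (median -3.84). Against arterial libraries, 25 were lower and 3 higher in type H (median -3.57), and 21 lower and 1 higher in CD200-high (median -3.16). Between arterial libraries and those labelled sinusoidal 1 was lower and 1 higher (median -1.06), and between CD200-high and type H 4 were lower and 2 higher (median -0.14). With Slc35d3 at its bound in CD200-high these medians did not change. Of all genes tested, 13.9% were higher in type H and 14.1% in CD200-high than in the libraries labelled sinusoidal. Against arterial libraries 7.96% were higher in type H and 4.75% in CD200-high. Arterial libraries had 8.09% higher than those labelled sinusoidal, and CD200-high 6.66% higher than type H. The shares lower are those given above, and the counts by role below have the same background.

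Of 10 surface receptors, 9 were lower in type H and 8 in CD200-high than in the libraries labelled sinusoidal. Itga2b and Itgb3 encode the fibrinogen receptor of platelets. Itgb3, which other cells also use, stood at 4.06 in CD200-high and 9.19 log2 CPM in the libraries labelled sinusoidal (difference 5.13 ± 0.64, adjusted p = 0.000125). F2rl2, a thrombin receptor, was higher by 10.33 ± 1.41 (adjusted p = 0.000225) and Cd226, an adhesion receptor shared with T and NK cells, by 9.32 ± 1.16 (adjusted p = 0.000121). With a pseudocount of 1 CPM, CD200-high minus sinusoidal-labelled was -7.90 for F2rl2 and -5.43 for Cd226.

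Of 7 enzyme and signalling genes, 5 were lower in type H and 4 in CD200-high than in the libraries labelled sinusoidal. Fermt3, the kindlin that activates platelet and leukocyte integrins, was higher there than in CD200-high by 4.52 ± 0.40 (adjusted p = 1.17e-05). Alox12, the platelet lipoxygenase, was higher by 3.11 ± 0.48 (adjusted p = 0.000602) and Rasgrp2, an activator of Rap1, by 2.66 ± 0.34 (adjusted p = 0.000156). Ptgs1, the cyclooxygenase of platelets and endothelium, went the other way in type H, at 7.44 against 6.03 log2 CPM (1.41 ± 0.29 higher, adjusted p = 0.00303). Fcer1g, the signalling partner of Gp6 and of Fc receptors in leukocytes, was higher in arterial libraries than in those labelled sinusoidal by 1.25 ± 0.21 (adjusted p = 0.00268). Both Ptgs1 and Fcer1g were below the libraries labelled sinusoidal (-4.95 and -2.83) once pan-endothelial medians were made equal. Ptgs1, Fcer1g, Selp, Vwf and Fli1 were named after their values were seen.

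Of 10 granule genes, 7 were lower and 1 higher in both CD200-high and type H than in the libraries labelled sinusoidal. Plek, a platelet and leukocyte kinase substrate, was higher in the libraries labelled sinusoidal than in CD200-high by 5.20 ± 0.50 (adjusted p = 1.95e-05), and Mmrn1, a granule protein also made by some endothelium, by 3.37 ± 0.54 (adjusted p = 0.000702). Mmrn1 had its highest mean in type H, at 8.51 ± 0.04 against 7.70 ± 0.33 log2 CPM in the libraries labelled sinusoidal (adjusted p = 0.297, not called). Type H exceeded CD200-high by 4.18 ± 0.54 (adjusted p = 0.00034) and arterial libraries by 2.81 ± 0.54 (adjusted p = 0.00334), the latter called in 20 of 21 alternatives with 0.411 as the highest adjusted p. Slc35d3, a dense granule gene, had no reads in CD200-high and was at least 72.4-fold higher than the floor of 3 reads per library (adjusted p = 0.00138). Here too the CD200-high values in the test hold only depth and the 0.5 read added. Thbs1, the thrombospondin of platelet granules and of many other cells, was instead higher in CD200-high, at 9.49 against 7.80 log2 CPM (1.69 ± 0.38, adjusted p = 0.00618). With equal pan-endothelial medians it was lower (-3.62), where the median of all genes was -5.53. Selp, the P-selectin of platelet granules and venular endothelium, was highest in type H at 8.34 ± 0.13 and exceeded the libraries labelled sinusoidal by 3.65 ± 1.0 (adjusted p = 0.0165). This was lost without sinusoidal-labelled replicate 2 (0.0574) and turned to -2.71 with equal pan-endothelial medians, where the median of all genes was -6.56. Vwf, the ligand of the receptor above, stood at -1.95 in type H and 6.49 in the libraries labelled sinusoidal (difference 8.44 ± 2.06, adjusted p = 0.00898). Type H minus sinusoidal-labelled was -10.39 without type H replicate 1, -6.83 without type H replicate 2 and -5.66 with a pseudocount of 1 CPM. In CD200-high Vwf stood at 1.54, and the difference of 4.95 ± 2.06 did not pass (adjusted p = 0.0937).

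Among cytoskeletal genes, Tubb1, the tubulin of the platelet ring, was higher in the libraries labelled sinusoidal than in CD200-high by 9.88 ± 1.69 (adjusted p = 0.00115) and Bin2 by 3.66 ± 0.40 (adjusted p = 4.5e-05). Myl9, a myosin light chain also made by mural cells, was at 8.40 and 4.48 log2 CPM, with 3.92 ± 1.39 between them (adjusted p = 0.0539, not called). It passed without CD200-high replicate 2 (0.0484), type H replicate 2 (0.00114) or type H replicate 3 (0.025). It also passed with voom weights (0.0063), and its range over all alternatives was 3.8e-05 to 0.151. Of 7 transcription factors, 4 were lower in type H and 3 in CD200-high. Gata1, the GATA factor of megakaryocytes, red cells and mast cells, was at -2.39 in CD200-high and 6.71 in the libraries labelled sinusoidal (difference 9.10 ± 1.93, adjusted p = 0.00444). CD200-high minus sinusoidal-labelled was -11.01 without CD200-high replicate 1 and -7.87 without CD200-high replicate 2. A pseudocount of 1 CPM gave -6.04 for Gata1 and -8.35 for Tubb1. Nfe2 was higher there by 2.13 ± 0.24 (adjusted p = 6.42e-05) and Gfi1b by 5.35 ± 1.66 (adjusted p = 0.0319), a call lost without any 1 library labelled sinusoidal (0.0713 to 0.0826), with no variance trend (0.0573) or with only these populations (0.0969). Its difference, CD200-high minus sinusoidal-labelled, was -2.74 without CD200-high replicate 1 and -7.04 without CD200-high replicate 2. Fli1, an ETS factor that endothelium shares, had means between 6.81 and 7.35 log2 CPM in the 4 populations.

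**Figure D4:**
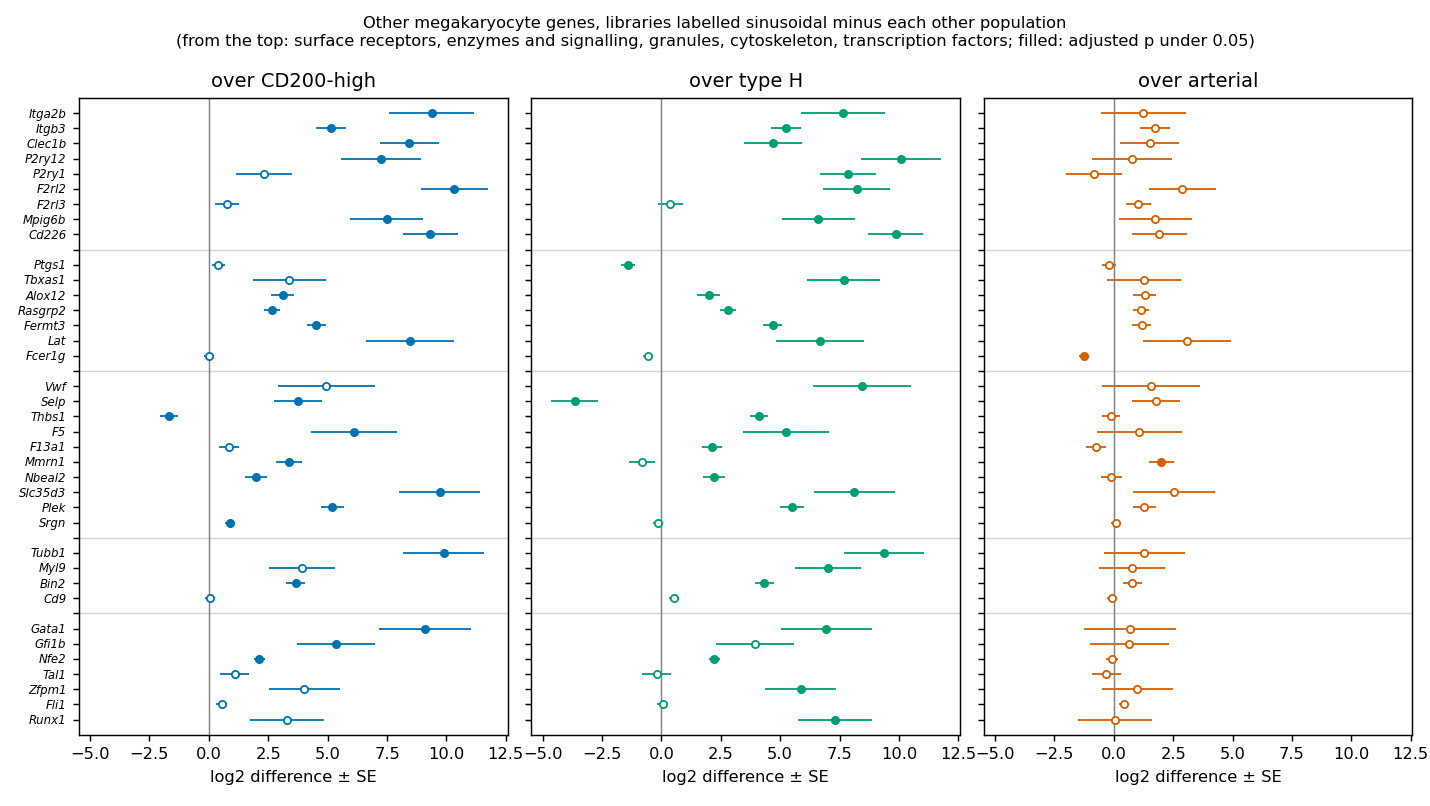
Difference between the libraries labelled sinusoidal and each other population for the further megakaryocyte genes grouped by role, without 1 of the 38 (x axis, log2 difference ± SE; filled, adjusted p under 0.05). Over type H most points lie to the right of 0, with Ptgs1 and Selp filled to the left; over arterial the filled points are Mmrn1 (lost without any 1 arterial or sinusoidal-labelled library) and Fcer1g (-1.25).

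Over all 12 libraries, the 8 genes outside the members with the profile closest to the members' mean log2 level were Nrgn (Pearson r = 0.985), H2afx (0.984), Tubb5 (0.98), H2afz (0.979), Hist1h4n (0.979), Lgr5 (0.978), Hsp90aa1 (0.977) and Hist1h4m (0.976). None was in the list of 38. The size of the step differed among them. Nrgn, the neurogranin gene, went from 0.17 in type H to 6.40 log2 CPM in the libraries labelled sinusoidal, Lgr5 from -4.61 to 5.96 and Tubb5 from 8.27 to 9.42. Among the members, pairs without Gp1bb had r between 0.70 and 0.96, the highest for Gp1ba and Gp5, and pairs with Gp1bb between 0.27 and 0.61. Gp5 had 0 reads in every CD200-high and type H library, and Gp1ba at most 41. All these r values thus rest in part on floor values and on the step between the lower and upper populations.

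Markers of other blood cells also varied between the populations. The counts below have as background the shares of all genes given above. These were 14.6% lower in type H and in CD200-high than in the libraries labelled sinusoidal. In arterial libraries 8.15% were higher than in CD200-high, 12.7% than in type H and 8.09% than in those labelled sinusoidal. Lists of macrophage, T and NK, stem and progenitor, and mast cell genes were also counted and are not described here. The summed level of the 8 members ran from 15.7 to 98.8 CPM in CD200-high, 36.8 to 71.3 in type H, 463 to 1581 in arterial libraries and 2860 to 3970 in those labelled sinusoidal. Of 8 B cell genes, 8 were lower in type H and 8 in CD200-high than in the libraries labelled sinusoidal, and their sum ran from 192 to 351, 95.8 to 164, 1521 to 3750 and 9167 to 10420 CPM in that order. Both sums were highest in arterial replicate 1, next in replicate 2 and lowest in replicate 3. Of 12 neutrophil genes, 12 were higher in arterial libraries than in CD200-high and in type H, and 10 were higher than in the libraries labelled sinusoidal. Their sum ran from 22090 to 35460 CPM in arterial libraries and from 4780 to 11660 over the other 9, so it did not follow the members. The erythroid sum (14 genes) was likewise highest in arterial libraries, at 10760 to 22220 CPM, against 2355 to 6820 in the rest. Of its genes, 10 were higher in arterial libraries than in CD200-high and 4 than in those labelled sinusoidal. Against type H 6 were higher and 1 lower in arterial libraries. No defining gene of the B cell, neutrophil or erythroid list was at 0 in all libraries of a population. The sum of stromal and bone genes (8) was highest in CD200-high, at 71460 to 103300 CPM. Gene by gene the list was mixed. In CD200-high 6 were higher and 2 lower than in type H, and 3 higher and 2 lower than in arterial libraries. Against the libraries labelled sinusoidal 5 were higher and 1 lower. Ptprc, the gene of the CD45 antigen that the gates exclude, had its lowest level in type H (3.98 ± 0.57 log2 CPM), followed by CD200-high (5.38 ± 0.65), the libraries labelled sinusoidal (6.55 ± 0.31) and arterial ones (7.41 ± 0.23). It was lower in type H than in the libraries labelled sinusoidal by 2.57 ± 0.36 (adjusted p = 0.000263) and than in arterial ones by 3.44 ± 0.36 (adjusted p = 9.26e-05). CD200-high was lower than these by 1.16 ± 0.36 (adjusted p = 0.0334, called in 15 of 21 alternatives) and 2.03 ± 0.36 (adjusted p = 0.00419). The part of other cells in the members' levels was not tested.

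**Figure D5:**
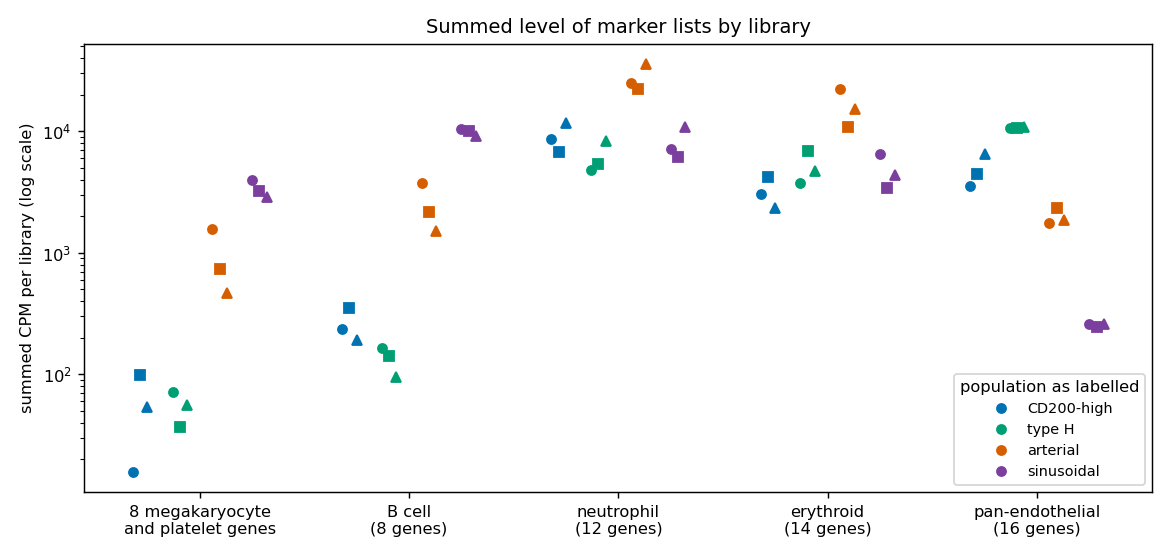
Summed CPM (y axis, log scale) of the 8 members and of B cell, neutrophil, erythroid and pan-endothelial marker lists in each library, coloured by population and shaped by replicate. The members and the B cell list are highest in the libraries labelled sinusoidal (2860 to 3970 and 9167 to 10420 CPM), where the pan-endothelial list is lowest (247 to 261 CPM).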

How the data were processed

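RNA-seq was made from 12 libraries of sorted marrow cells, grouped by the population in their titles. The authors deposited log2 values, namely log2 CPM, which carry an offset of 0.5 read and use effective library sizes. Undoing this gave whole reads within 0.01 for 100% of values in every library. Per the submitters' processing notes, Trimmomatic, STAR, SAMtools, deepTools, featureCounts and R 4.3 were used, with a human build named for mouse samples, so no coordinate of the table is given, and the strand and scaling are not stated. Per the labels' protocols, low-input cDNA synthesis and Nextera XT libraries were used. Listed reads were 7.33 to 21.6 M, which limits genes with few reads.

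Limma 3.58.1 (R 4.3.3) tested 6 comparisons in 1 fit with a mean-variance trend on the deposited log2 values. The fit kept 17086 of 17362 genes, those that reached 10 reads (after scaling to the mean library) in 3 or more libraries. A call is a Benjamini-Hochberg adjusted p under 0.05 over all genes tested. Floors are 3 reads per library. The fit was tested on simulated data in which only genes above a set mean level were changed. That simulation does not cover members near 0 reads in the lower populations. The members, gene lists, rules and alternatives were chosen with earlier results of these data known. Named genes were the 8 members, up to 3 per role of the 38 others with the smallest adjusted p between CD200-high and sinusoidal-labelled libraries, any that went the opposite way there, and the 8 most alike. The values of 1 of the 38 genes, which the counts include, are not reported here. How 6 mice gave 3 libraries per population is not given, so p-values measure the spread between these samples. Mouse numbers recur across populations in the labels, and the replicate block treats these as pairs. Deviations of same-numbered libraries correlated at -0.05 to 0.09 over 11351 genes (median 0.02), with 0 of 18 pairs over 0.1.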

Additional observations from a re-analysis of the deposited data

How the results depend on the processing

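Of 29 member differences called among 48 tested, 23 stayed called under all 21 alternatives, and 6 were lost under at least 1. The replicate block, a paired fit, lost 1 of them (Gp6, CD200-high against sinusoidal-labelled, adjusted p = 0.0523) and gained 0. The one member difference that changed sign, with no call in any alternative, was that of Ppbp between CD200-high and type H: it was -1.06, -0.45 and -0.25 without CD200-high replicate 2, CD200-high replicate 3 and type H replicate 2, against 0.14, and spanned -1.06 to 1.95 without 1 library. For CD200-high against type H, 1 member was called with a pseudocount of 1 CPM and 1 with equal pan-endothelial medians (Gp1bb each, higher in CD200-high, with 7.5% and 21.4% of all genes higher), and 0 to 2 without 1 library. For arterial against sinusoidal-labelled libraries, where 1 was called, 2 were with the pseudocount, 5 with voom, 5 in the fit of only these populations and 8 with equal pan-endothelial medians, with 3.17%, 4.33%, 5.54% and 76.0% of all genes lower.

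Making the pan-endothelial medians equal moved the median of all genes to 1.0, -1.46, -5.53, -2.49, -6.56 and -4.09 in CD200-high against type H, arterial and sinusoidal-labelled, type H against arterial and sinusoidal-labelled, and arterial against sinusoidal-labelled. The members' medians were then 1.51, -7.37, -13.98, -8.54, -15.09 and -5.99. Genes called became 4025, 6460, 14879, 12123, 15725 and 13161. Fitted alone, CD200-high against type H gave 1337 genes against 2223, and arterial against sinusoidal-labelled 2829 against 1748. Without 1 library, CD200-high against arterial gave 1353 to 2458 genes against 2204, and arterial against sinusoidal-labelled 1019 to 1870. Equal pan-endothelial medians also turned Thbs1 (-3.62, CD200-high against sinusoidal-labelled), Ptgs1 and Selp (-4.95 and -2.71, type H against sinusoidal-labelled) and Fcer1g (-2.83, arterial against sinusoidal-labelled).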
